A study of Arabidopsis thaliana with 8 samples.

Results

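The 40 genes described here encode nuclear-made proteins of the photosynthetic electron transport chain of Arabidopsis thaliana: photosystem subunits, antenna proteins other than the major ones, and some carriers and ATP synthase subunits. They were chosen by locus from a list of photosystem I antenna proteins (LHCA1 to LHCA6), minor antenna proteins of photosystem II (LHCB4 to LHCB6), nuclear PSA and PSB subunits, the Rieske protein PETC, both plastocyanins and 2 subunits of the chloroplast ATP synthase. The rule names loci and uses no measured value, but earlier results of these data were known when it was drawn up. All 40 loci were found among the 27655 gene rows of the expression table. Messenger RNA had been sequenced from whole seedlings in 8 libraries, 2 for each of 4 groups: wild type (accession Col-0) and the line prp43a-1, each without treatment and after heat. The line carries a T-DNA insertion, so that a single allele stands for the mutant, and how far it removes the protein was not measured. Seedlings grew for 7 days at 22 °C on MS medium with sucrose, with 16 h of light and 8 h of dark a day, and the heat groups were then kept at 38 °C for 16 h. The sample titles number biological replicates within each group. The p-values measure the spread between these libraries.

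Light captured by antenna proteins drives electrons from water through photosystem II, the cytochrome b6f complex, plastocyanin and photosystem I to ferredoxin, and the proton gradient built on the way drives the ATP synthase. The reaction centre proteins of both photosystems are encoded in the chloroplast, while most antenna proteins and small peripheral subunits are encoded in the nucleus, made in the cytosol and imported. Several nuclear subunits are encoded by a pair of closely related genes. In green tissue these transcripts are among the most abundant of all.

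The libraries held 4071041 to 4783641 reads (or read pairs) as recovered from the deposited TPM values, and within a condition any pair of libraries had a correlation over genes of r = 0.976 to 0.985. TPM is a share of a library's transcripts: the read number of a gene is corrected for its length and scaled so that all genes sum to 1000000. The sources used here do not tie the name PRP43a to a locus, and values are given for 2 loci of Prp43-type RNA helicases. AT3G62310 had 26.7 and 29.8 TPM in untreated wild type against 1.68 and 1.44 TPM in untreated prp43a, and 64.6 and 72.4 against 10.3 and 8.24 TPM after heat, both lower in the line. AT2G47250 had 34.7 and 32.1 TPM against 49.8 and 54.1 TPM at control temperature, and 98.4 and 90.1 against 101 and 103 TPM after heat. Leaf markers were abundant in all libraries, with the Rubisco small subunit gene RBCS1A at 9605 to 19714 TPM. Of the 9 root markers, PYK10 was well above 0 at 1075 to 1298 TPM in control libraries and 107 to 151 TPM in heat libraries, and SCR and SHR were present at low levels. NRT2.1, COBL9 and TIP2;3 reached at most 1.54 TPM, EXPA7 3.91 TPM and PRX44 and PRX73 7.54 and 10.6 TPM. With heat 1 of the 7 root markers tested fell in wild type (PYK10, median of the 7 -0.31) and 6 fell in prp43a (median -1.01, limma, adjusted p below 0.05). None passed in the difference of the heat responses. All 5 leaf markers fell in both genotypes, with medians of -2.19 in wild type and -2.22 in prp43a. They kept 43.0% and 39.8% of their summed share. Of all genes tested 27.6% fell in wild type and 27% in prp43a. How far the makeup of the seedlings moved with heat was not tested, and in whole seedlings fewer cells of a type and less RNA per cell cannot be told apart. No hour of harvest is stated, and heat and time of day cannot be told apart in any heat comparison.

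Under control conditions the 40 genes together made up 13.4% ± 0.022 of all TPM in wild type and 12.8% ± 0.119 in prp43a (SD, n = 2 each). In wild type 11 of them were among the 20 most abundant gene rows, 28 among the 50 most abundant and 37 among the 500 most abundant. The highest was LHCA4, an antenna protein of photosystem I, and the lowest was PSBP2, at 9.71 to 12.3 TPM in control libraries. Each library gave PSBP2 18 to 37 reads, whereas every other gene of the 40 rested on at least 81 reads in every library.

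**Figure D1:**
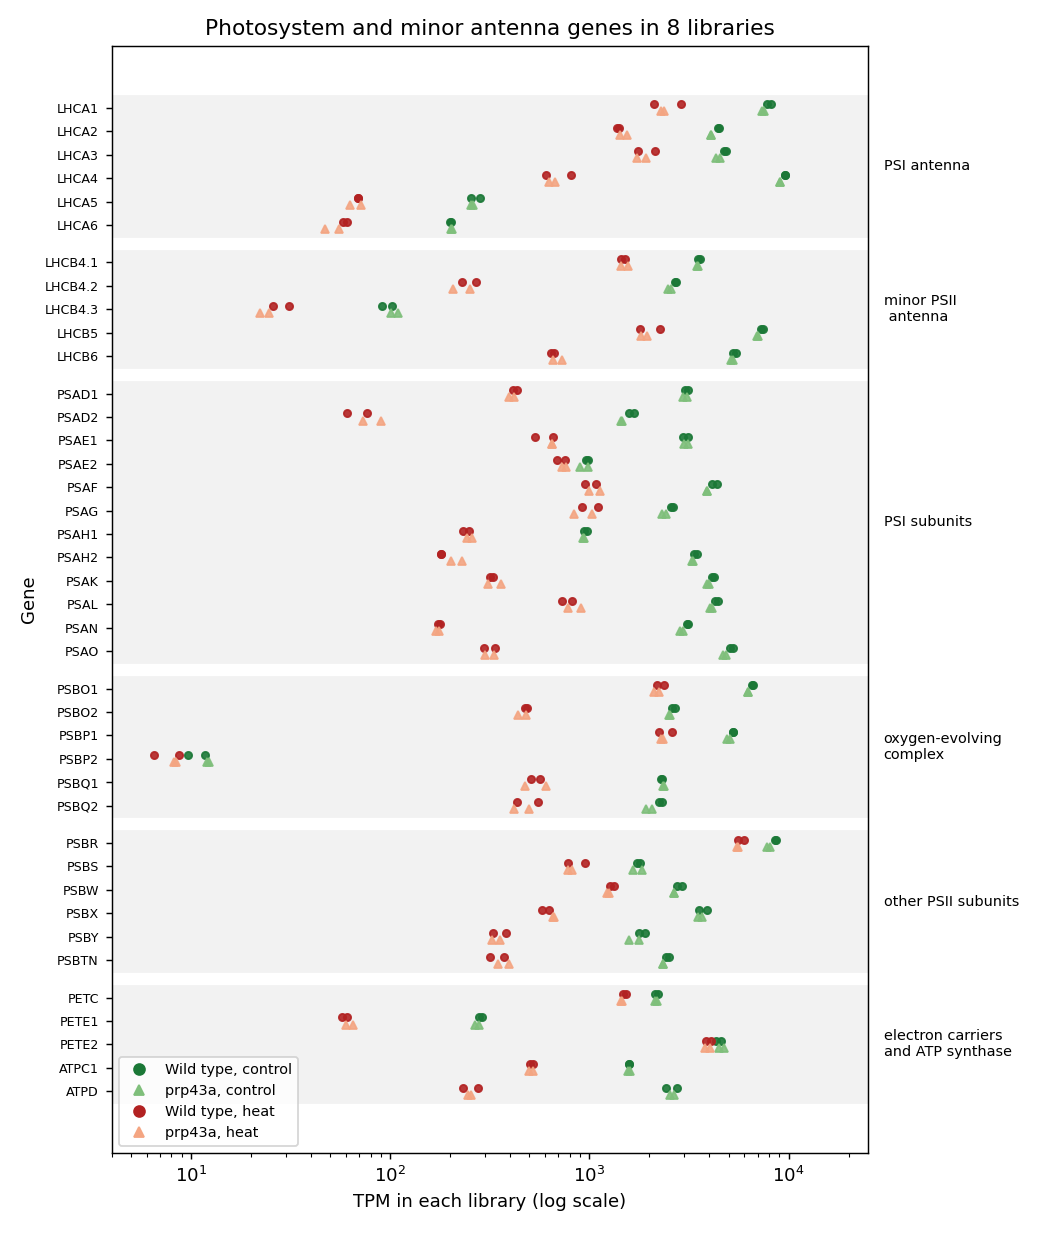
TPM of each of the 40 genes in each of the 8 libraries, on a log scale, grouped by role; circles are wild type, triangles prp43a, green control and red heat. In each genotype both heat libraries lie left of both control libraries for all 40 genes, with those of PETE2 the closest in both genotypes (TPM as deposited; PETE2 rises under quantile normalization).

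After heat the summed share of the 40 genes was 3.87% ± 0.238 of all TPM in wild type and 3.79% ± 0.145 in prp43a (SD, n = 2 each), which left 28.8% and 29.7% of the control share. Of the 40 genes 38 fell in wild type and none rose, where 70% of all genes tested passed, 27.6% lower and 42.4% higher (limma, adjusted p below 0.05, 19697 genes). In prp43a 40 of 40 fell, where 70.1% of all genes tested passed, 27% lower and 43.1% higher. Under quantile normalization, which forces the same distribution on all libraries, 37 fell in each genotype, PETE2 rose in both, and PSBR and PETC were above 0 without passing. The median log2 fold change of the 40 genes was -2.03 in wild type and -2.04 in prp43a, against 0.25 and 0.28 over all genes tested. With median-of-ratios scaling, which moved the median of all genes to 0.00 in wild type, the medians of the 40 were -2.31 and -2.36. Both heat libraries of a genotype lay below both of its control libraries for all 40 genes, in wild type and in prp43a, which held for 33.6% and 33.9% of all genes tested; the reverse held for none of the 40 and for 50.3% and 51.9% of all genes tested.

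The falls were large as well as frequent. At least 2-fold falls were seen for 35 genes in wild type and 35 in prp43a, where 17.6% and 17.1% of all genes tested fell as much. Falls of at least 4-fold were seen for 20 genes in each genotype (6.42% and 6.03% of all genes), and of at least 8-fold for 9 in wild type and 8 in prp43a (2.07% and 1.93% of all genes). The size differed widely among the 40, from -0.16 for the plastocyanin gene PETE2 to -4.55 for the photosystem I gene PSAD2 in wild type. Across the 40 genes the control level and the log2 fold change in wild type were nearly unrelated (Spearman's rho = -0.10 across genes, which share libraries and are not replicates). After heat 2 of the 40 were still among the 20 most abundant gene rows in wild type, and 10 among the 50 most abundant.

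**Figure D2:**
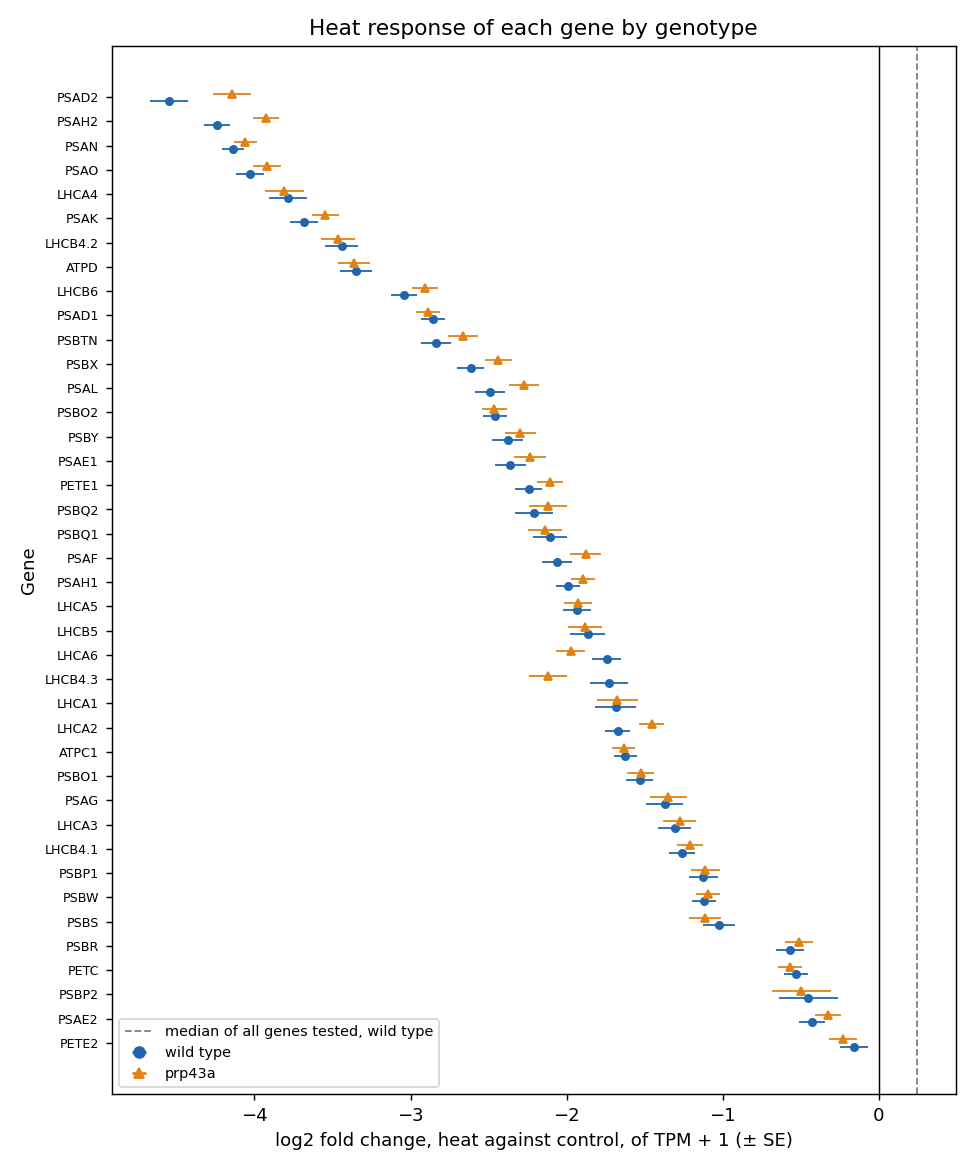
Log2 fold change of TPM + 1 with heat for each gene, with its standard error, in wild type (circles) and prp43a (triangles), ordered by the value in wild type; the dashed line is the median of all genes tested in wild type, 0.25. The 40 values run from -4.55 to -0.16 in wild type and from -4.14 to -0.23 in prp43a, and the genotypes lie close to each other; under quantile normalization PETE2, PSBR and PETC are above 0.

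The role groups lost unequal parts of their transcript share. The 12 subunits of photosystem I kept 15.9% of their control share in wild type and 17.4% in prp43a, the smallest parts of the 6 groups. The 5 minor antenna genes of photosystem II kept 23.3% and 23.7%, and the 6 antenna genes of photosystem I 24.4% and 25.2%. The oxygen-evolving complex genes kept 32.6% and 32.8%, the other photosystem II subunits 43.7% and 45.0%, and the group of electron carriers and ATP synthase subunits 56.9% and 55.4%. In wild type the photosystem I subunits went from 3.68% ± 0.030 to 0.585% ± 0.009 of all TPM (SD, n = 2 each), and after heat their libraries overlapped those of the oxygen-evolving complex. The electron carriers and ATP synthase subunits were the smallest group before heat, at 1.11% ± 0.034. After heat they stood at 0.630% ± 0.023, next to the photosystem I antenna at 0.667% ± 0.097 and the oxygen-evolving complex at 0.621% ± 0.043 (SD, n = 2 each), and the libraries of these 3 groups overlapped. A group's share follows its most abundant genes, so the median log2 fold changes were also compared. In wild type they ran from -1.62 for the electron carriers and ATP synthase subunits to -2.67 for the photosystem I subunits. Within the first of these groups single genes ran from -3.35 to -0.16. The minor antenna lay at -1.87 and the oxygen-evolving complex at -1.82. The other photosystem II subunits lay at -1.75 and the photosystem I antenna at -1.71. In wild type the photosystem I antenna thus had a slightly smaller median fall than the other photosystem II subunits, although it kept less of its share. In prp43a the order of these medians was the reverse, at -1.80 for the photosystem I antenna and -1.71 for the other photosystem II subunits.

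**Figure D3:**
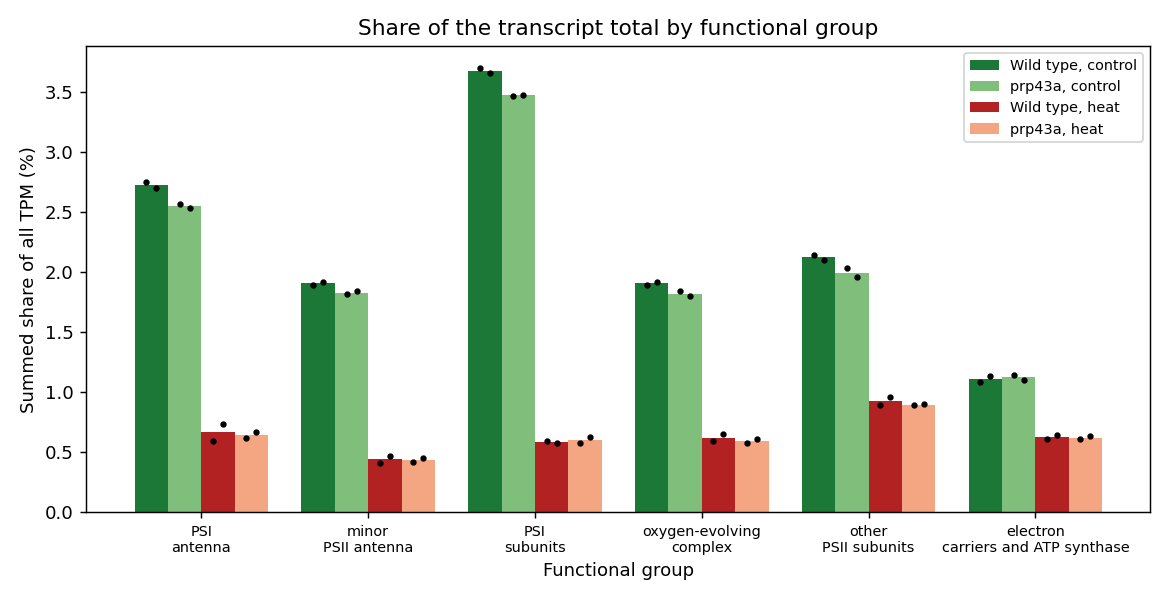
Summed share of all TPM of the genes in each of 6 functional groups; bars are means and dots the 2 libraries of each group of samples. The photosystem I subunits hold 3.68% in wild-type control and 0.585% in wild-type heat, and in every group the heat bars are below the control bars.

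All 6 antenna genes of photosystem I fell in both genotypes, LHCA4 by far the most. LHCA1 to LHCA4 form the belt of antenna proteins on one side of photosystem I. LHCA4 was measured at 9632 and 9607 TPM in untreated wild type and 9093 and 9097 TPM in untreated prp43a, against 603 and 806 TPM in heated wild type and 626 and 672 TPM in heated prp43a. The control libraries thus lay more than 10-fold above the heat libraries, without overlap, and LHCA4 kept 7.32% of its level in wild type. LHCA4 (AT3G47470, chromosome 3, 17493343 to 17495033, minus strand of TAIR10.1) had log2 fold changes of -3.78 in wild type (SE 0.12, limma adjusted p = 5.6e-09) and -3.81 in prp43a (SE 0.12, limma adjusted p = 5.7e-09). In control libraries LHCA2 had 4487 and 4402 TPM in wild type and 4069.9 and 4092 TPM in prp43a, and after heat 1375 and 1409.8 TPM and 1423 and 1554 TPM. LHCA2 (AT3G61470) lay clearly below control in all heat libraries, but kept 31.3% in wild type and 36.5% in prp43a. LHCA1 kept 31.4% and LHCA3 40.5% in wild type, so LHCA4 stood apart from its 3 neighbours in the belt. LHCA5 and LHCA6, scarce antenna proteins that link photosystem I to the chloroplast NADH dehydrogenase-like complex, were at about 200 to 280 TPM in control libraries. For LHCA6 the values were 201 and 200.1 TPM (wild type, control), 202 and 205 TPM (prp43a, control), 58.1 and 60.5 TPM (wild type, heat) and 47.1 and 55.2 TPM (prp43a, heat). LHCA6 (AT1G19150) had both prp43a heat values below both wild-type heat values, and log2 fold changes with heat of -1.74 in wild type and -1.97 in prp43a. LHCA5 fell by nearly the same amount in both genotypes, -1.94 in wild type and -1.93 in prp43a.

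All 5 minor antenna genes of photosystem II fell in both genotypes, and the 3 genes for LHCB4 did so to different degrees. LHCB4, LHCB5 and LHCB6 (also called CP29, CP26 and CP24) sit as single copies between the photosystem II core and the major antenna. LHCB5 gave 7268 and 7402 TPM (wild type) and 6988 and 6927 TPM (prp43a) at control temperature and 1799 and 2251 TPM (wild type) and 1824 and 1947 TPM (prp43a) after heat. LHCB5 (AT4G10340) was the most abundant of the group and kept 27.6% of its level in wild type, whereas LHCB6 (AT1G15820) kept 12.1%. LHCB4.1 was measured at 3586 and 3500.3 TPM in untreated wild type and 3459.8 and 3517 TPM in untreated prp43a, against 1445 and 1511 TPM in heated wild type and 1445 and 1571 TPM in heated prp43a. LHCB4.2 was measured at 2696 and 2723 TPM in untreated wild type and 2489 and 2578 TPM in untreated prp43a, against 229 and 270.1 TPM in heated wild type and 208 and 251 TPM in heated prp43a. The 2 genes were thus close to each other in control libraries and far apart after heat, where LHCB4.2 stood near 200 to 270 TPM in each library. LHCB4.1 (AT5G01530, chromosome 5, 208866 to 210548, plus strand) had log2 fold changes of -1.26 in wild type and -1.21 in prp43a, and LHCB4.2 (AT3G08940, chromosome 3, 2717557 to 2718923, plus strand) of -3.44 in wild type and -3.47 in prp43a. LHCB4.1 contributed 56.2 to 58.2% of the TPM of the pair in the 4 control libraries and 84.8 to 87.4% in the 4 heat libraries. The log2 ratio of LHCB4.1 to LHCB4.2 was 0.42 ± 0.05 in control and 2.64 ± 0.13 after heat (SD, n = 4 libraries each, both genotypes together; exact permutation test, two-sided, p = 0.0286, the smallest that 4 against 4 libraries allow; 0.0321 adjusted over 9 pairs). The shift was 2.18 in wild type and 2.26 in prp43a. In control libraries LHCB4.3 had 91.0 and 102 TPM in wild type and 109 and 101 TPM in prp43a, and after heat 31.3 and 25.8 TPM and 24.6 and 22.3 TPM. LHCB4.3 (AT2G40100), the scarcest of the 3 genes, was low throughout and fell without overlap, with log2 fold changes of -1.73 in wild type and -2.12 in prp43a. Its ratio to LHCB4.1 moved by 0.69 on the log2 scale (exact permutation test, p = 0.0286; 0.0321 adjusted over 9 pairs), with a p of 0.0571 without wild-type control replicate 2 or without either prp43a control library, where control and heat libraries still did not overlap.

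The promoters of LHCB4.1 and LHCB4.2 are shown because the ratio of these genes shifted by more than 2 on the log2 scale in both genotypes. Each sequence is the 250 bases before the annotated gene start, read from the TAIR10.1 reference and printed 5′ to 3′ on the strand of the gene. Capitals mark matches, on either strand, to 4 motifs: the G-box CACGTG and the I-box GATAAG, elements known from light-regulated plant promoters, the CCAATC motif of light-harvesting gene promoters, and the TATA box letters TATAAA. Matches that overlap or touch are in 1 run of capitals.
LHCB4.1 (chr5:208616-208865, plus strand): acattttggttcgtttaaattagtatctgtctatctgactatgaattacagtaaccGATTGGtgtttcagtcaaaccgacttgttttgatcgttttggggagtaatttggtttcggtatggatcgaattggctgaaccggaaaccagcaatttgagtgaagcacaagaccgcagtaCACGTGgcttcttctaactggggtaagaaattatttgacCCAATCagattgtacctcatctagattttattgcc
LHCB4.2 (chr3:2717307-2717556, plus strand): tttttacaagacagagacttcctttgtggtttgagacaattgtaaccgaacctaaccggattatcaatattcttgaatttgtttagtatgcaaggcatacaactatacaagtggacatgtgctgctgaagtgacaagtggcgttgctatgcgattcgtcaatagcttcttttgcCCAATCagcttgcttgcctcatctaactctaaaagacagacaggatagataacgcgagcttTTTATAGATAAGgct
LHCB4.1 held a G-box 74 bases before its start and CCAATC motifs 194 and 35 bases before it. LHCB4.2 held no G-box in this window but had a CCAATC motif at 76 and an I-box at 9 bases before its start. TATA box letters were found at 15 bases before its start, on the opposite strand. The G-box was found in 10 of the 40 promoters (25.0%) and in 6.5% of 27443 promoters of protein-coding genes, the I-box in 27.5% and 12.3%, the CCAATC motif in 22.5% and 10.2%, and the TATA box in 20 of the 40 and 47.3%. The heat shock element core GAANNTTC was found in 1 of the 40 promoters, that of LHCB5, and in 9.6% of all. The 10 genes with a G-box had a median log2 fold change with heat of -2.53 in wild type and the 30 without it -1.90. For the I-box these medians were -2.21 with and -1.94 without, for the TATA box -2.05 and -1.96, and for the CCAATC motif, in the other direction, -1.69 and -2.06. These matches are letters in a window and no evidence of binding.

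The 12 genes for subunits of photosystem I all fell in both genotypes, and 5 of them fell at least 8-fold in each. By role, PSAD and PSAE form the stromal platform where ferredoxin docks, PSAF receives plastocyanin, PSAG and PSAK flank the antenna, and PSAH, PSAL and PSAO form the side where major antenna proteins bind during state transitions. For PSAD2 the values were 1672 and 1575 TPM (wild type, control), 1459 and 1446 TPM (prp43a, control), 61.1 and 76.6 TPM (wild type, heat) and 90.3 and 73.3 TPM (prp43a, heat). For PSAD1 the values were 3144 and 3023 TPM (wild type, control), 2968 and 3079 TPM (prp43a, control), 414 and 436 TPM (wild type, heat) and 395 and 420.2 TPM (prp43a, heat). Control and heat libraries were widely separate for both genes, and PSAD2 kept 4.24% of its level in wild type where PSAD1 kept 13.8%. PSAD2 (AT1G03130, chromosome 1, 753307 to 754262, minus strand) had log2 fold changes of -4.55 in wild type (SE 0.12, limma adjusted p = 1.9e-09) and -4.14 in prp43a (SE 0.12, limma adjusted p = 3.5e-09). PSAD1 (AT4G02770) had log2 fold changes of -2.86 in wild type and -2.89 in prp43a. The log2 ratio of PSAD1 to PSAD2 went from 0.99 ± 0.08 to 2.46 ± 0.26 (SD, n = 4 each; exact permutation test, p = 0.0286; 0.0321 adjusted over 9 pairs), so the more abundant gene of the pair became more dominant.

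In the pairs for PSAE and PSAH the order of the genes turned over. PSAE1 gave 3132 and 2953 TPM (wild type) and 2995 and 3120.3 TPM (prp43a) at control temperature and 657 and 533 TPM (wild type) and 648 and 648 TPM (prp43a) after heat. PSAE2 gave 982 and 965 TPM (wild type) and 896 and 986 TPM (prp43a) at control temperature and 690.1 and 757 TPM (wild type) and 766 and 733 TPM (prp43a) after heat. PSAE1 was about 3-fold above PSAE2 in every control library and below it in every heat library. PSAE1 (AT4G28750, chromosome 4, 14202758 to 14204061, minus strand) had log2 fold changes of -2.36 in wild type and -2.24 in prp43a. PSAE2 (AT2G20260, chromosome 2, 8736734 to 8737767, plus strand) fell by far less, with log2 fold changes of -0.43 in wild type (SE 0.08, limma adjusted p = 0.0011) and -0.33 in prp43a (SE 0.08, limma adjusted p = 0.0056). Without prp43a control replicate 2 the call of PSAE2 in prp43a was lost (limma adjusted p = 0.070 in a range of 8.1e-05 to 0.070 over the alternatives). PSAE1 made up 75.4 to 77.0% of the TPM of the pair in control libraries and 41.3 to 48.8% in heat libraries. The log2 ratio went from 1.67 ± 0.05 to -0.25 ± 0.19 (SD, n = 4 each; exact permutation test, p = 0.0286; 0.0321 adjusted over 9 pairs).

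PSAH2 was measured at 3359 and 3485 TPM in untreated wild type and 3303 and 3289 TPM in untreated prp43a, against 180.0 and 181 TPM in heated wild type and 203 and 229.7 TPM in heated prp43a. PSAH1 was measured at 939 and 974 TPM in untreated wild type and 942 and 933 TPM in untreated prp43a, against 249.7 and 231 TPM in heated wild type and 244 and 258 TPM in heated prp43a. PSAH2, the higher gene of the pair in every control library, was the lower gene in every heat library. PSAH2 (AT1G52230, chromosome 1, 19454798 to 19455668, plus strand) had log2 fold changes of -4.24 in wild type (SE 0.08, limma adjusted p = 3.8e-10) and -3.93 in prp43a (SE 0.08, limma adjusted p = 6.0e-10). PSAH1 (AT3G16140, chromosome 3, 5467987 to 5469594, minus strand) had log2 fold changes of -1.99 in wild type and -1.90 in prp43a. PSAH1 made up 21.8 to 22.2% of the pair in control libraries and 52.9 to 58.1% in heat libraries. The log2 ratio of PSAH1 to PSAH2 went from -1.83 ± 0.01 to 0.32 ± 0.13 (SD, n = 4 each; exact permutation test, p = 0.0286; 0.0321 adjusted over 9 pairs).

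The promoters of both pairs are shown because the rank of their genes exchanged with heat; capitals mark the same 4 motifs.
PSAE1 (chr4:14204062-14204311, minus strand): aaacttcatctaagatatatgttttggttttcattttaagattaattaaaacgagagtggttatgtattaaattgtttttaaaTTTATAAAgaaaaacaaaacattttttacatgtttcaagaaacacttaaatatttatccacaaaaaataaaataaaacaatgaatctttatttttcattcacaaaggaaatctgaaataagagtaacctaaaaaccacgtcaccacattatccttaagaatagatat
PSAE2 (chr2:8736484-8736733, plus strand): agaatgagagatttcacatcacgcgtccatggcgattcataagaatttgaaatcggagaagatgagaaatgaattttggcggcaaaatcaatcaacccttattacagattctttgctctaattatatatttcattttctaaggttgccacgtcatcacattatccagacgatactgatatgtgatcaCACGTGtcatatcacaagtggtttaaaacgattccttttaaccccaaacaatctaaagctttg
PSAH1 (chr3:5469595-5469844, minus strand): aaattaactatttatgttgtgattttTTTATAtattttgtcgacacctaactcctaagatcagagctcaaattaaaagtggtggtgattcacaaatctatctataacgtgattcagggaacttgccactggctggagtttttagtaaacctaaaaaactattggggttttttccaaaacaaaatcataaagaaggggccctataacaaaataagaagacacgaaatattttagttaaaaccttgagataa
PSAH2 (chr1:19454548-19454797, plus strand): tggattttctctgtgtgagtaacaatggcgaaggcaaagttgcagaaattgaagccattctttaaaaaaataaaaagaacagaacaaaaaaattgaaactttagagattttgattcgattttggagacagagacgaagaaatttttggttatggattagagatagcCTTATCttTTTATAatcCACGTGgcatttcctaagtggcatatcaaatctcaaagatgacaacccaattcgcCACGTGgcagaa
PSAE1 held TATA box letters on both strands, overlapping, at 167 and 165 bases before its start and none of the other motifs. PSAE2 held a G-box at 63. PSAH1 held only TATA box letters, on the opposite strand at 224, whereas PSAH2 held G-boxes at 67 and 12 bases before its start. PSAH2 also held an I-box at 84 and TATA box letters at 76, both of these on the opposite strand. In the PSAE pair the gene with the G-box fell less, and in the PSAH pair the gene with the G-boxes fell more.

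The other photosystem I subunits had no second gene among the 40. In control libraries PSAO had 5097 and 5238 TPM in wild type and 4859 and 4711 TPM in prp43a, and after heat 338 and 296 TPM and 299 and 332 TPM. In control libraries PSAN had 3100.0 and 3137 TPM in wild type and 2954 and 2838 TPM in prp43a, and after heat 179 and 174 TPM and 169.6 and 176 TPM. In control libraries PSAK had 4113 and 4218 TPM in wild type and 3979.8 and 3887 TPM in prp43a, and after heat 329 and 318 TPM and 311 and 362 TPM. All 3 lay more than 10-fold lower after heat in every library. PSAO (AT1G08380) kept 6.13% of its wild-type level, PSAN (AT5G64040), a small subunit on the lumen side, 5.66%, and PSAK (AT1G30380) 7.76%. PSAN had log2 fold changes of -4.14 in wild type (SE 0.07, limma adjusted p = 2.8e-10) and -4.06 in prp43a (SE 0.07, limma adjusted p = 3.2e-10). PSAL (AT4G12800), PSAF (AT1G31330) and PSAG (AT1G55670) fell less, with log2 fold changes in wild type of -2.49, -2.06 and -1.37. PSAG and PSAK, which are related proteins on opposite flanks of the antenna, thus kept 38.8% and 7.76% of their wild-type level.

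Of the 6 genes of the oxygen-evolving complex 5 fell in wild type and 6 in prp43a. PSBO, PSBP and PSBQ are the extrinsic proteins that cover the manganese cluster of photosystem II on the lumen side. For PSBO1 the values were 6529 and 6612 TPM (wild type, control), 6282 and 6263 TPM (prp43a, control), 2182 and 2366 TPM (wild type, heat) and 2116 and 2246 TPM (prp43a, heat). For PSBO2 the values were 2595 and 2707 TPM (wild type, control), 2556 and 2511 TPM (prp43a, control), 474 and 489 TPM (wild type, heat) and 437 and 481 TPM (prp43a, heat). PSBO1 was the higher of the 2 in all libraries, and its lead widened with heat. PSBO1 (AT5G66570) had log2 fold changes of -1.53 in wild type and -1.52 in prp43a and PSBO2 (AT3G50820) of -2.46 in wild type and -2.46 in prp43a. Their log2 ratio went from 1.31 ± 0.02 to 2.24 ± 0.04 (SD, n = 4 each; exact permutation test, p = 0.0286; 0.0321 adjusted over 9 pairs). PSBQ1 gave 2294 and 2329 TPM (wild type) and 2381 and 2348 TPM (prp43a) at control temperature and 563 and 511 TPM (wild type) and 476 and 605 TPM (prp43a) after heat. PSBQ2 gave 2240.0 and 2305 TPM (wild type) and 2053 and 1925 TPM (prp43a) at control temperature and 433 and 555 TPM (wild type) and 421 and 496 TPM (prp43a) after heat. The PSBQ genes (AT4G21280, listed in the file as PSBQA, and AT4G05180) had nearly equal levels before and after heat. Their log2 ratio was 0.14 ± 0.13 in control and 0.18 ± 0.22 after heat, with overlapping libraries (SD, n = 4 each; exact permutation test, p = 0.714, also after adjustment). It was the 1 pair of 9 without a shift past the test.

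PSBP1 was measured at 5289.8 and 5240.1 TPM in untreated wild type and 5096 and 4908 TPM in untreated prp43a, against 2249 and 2590.4 TPM in heated wild type and 2339 and 2289.5 TPM in heated prp43a. PSBP2 was measured at 11.7 and 9.71 TPM in untreated wild type and 12.3 and 12.1 TPM in untreated prp43a, against 6.51 and 8.70 TPM in heated wild type and 8.43 and 8.28 TPM in heated prp43a. PSBP1 stood far above PSBP2 in every library, on average 414-fold in control and 265-fold in heat libraries. PSBP1 (AT1G06680) had log2 fold changes of -1.12 in wild type (SE 0.09, limma adjusted p = 2.5e-06) and -1.11 in prp43a (SE 0.09, limma adjusted p = 2.8e-06). PSBP2 (AT2G30790), whose annotated coding sequence is 378 bases long against 792 for PSBP1, had log2 fold changes of -0.45 in wild type (SE 0.19, limma adjusted p = 0.053) and -0.50 in prp43a (SE 0.19, limma adjusted p = 0.037). At 18 to 37 reads a library PSBP2 was measured coarsely, and its call moved with the settings: in prp43a it was lost in voom on recovered reads (limma adjusted p = 0.074) and without any 1 of the prp43a libraries (0.097 to 0.12), and in wild type it was gained in 5 of 18 alternatives, which were quantile normalization, median-of-ratios scaling, the fit with no trend, the filter at 5 TPM and the fit without wild-type heat replicate 2 (limma adjusted p = 0.022 in the last), in a range over all alternatives of 0.0045 to 0.26 in wild type and 0.0026 to 0.12 in prp43a. The log2 ratio of PSBP1 to PSBP2 went from 8.69 ± 0.17 to 8.05 ± 0.13 (SD, n = 4 each; exact permutation test, p = 0.0286; 0.0321 adjusted over 9 pairs), and under quantile normalization it moved the other way, by 0.31.

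**Figure D4:**
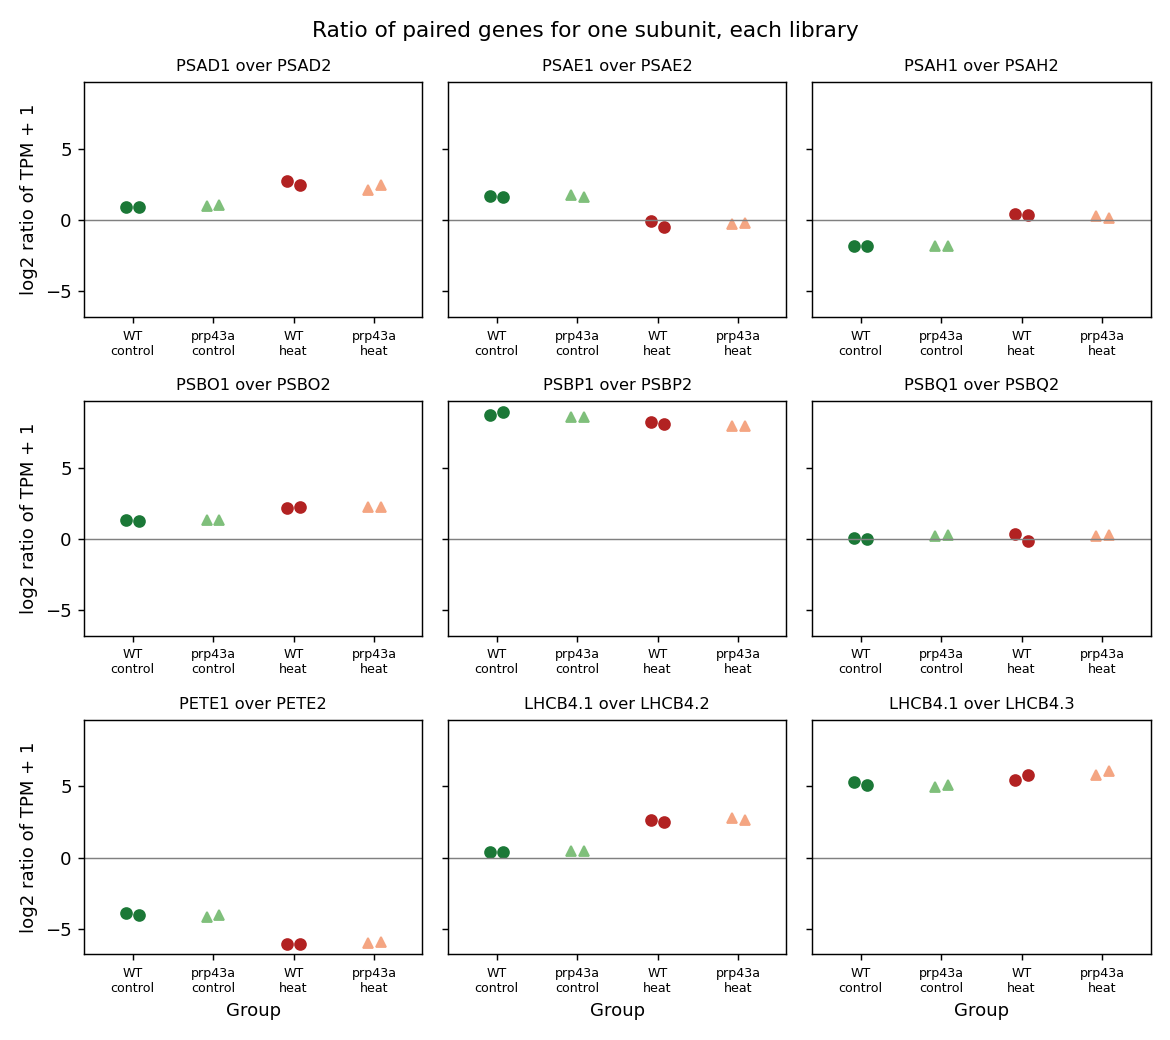
Log2 ratio of TPM + 1 between genes for the same subunit, 1 point for each library, in 9 panels on a shared scale; circles are wild type and triangles prp43a. The PSAE and PSAH panels cross the line at 0 between control and heat, and the PSBQ panel stays near it. The shift of PSAD1 over PSAD2 is 1.69 in wild type and 1.25 in prp43a. That of LHCB4.1 over LHCB4.3 is 0.47 and 0.91. The shift of PSBP1 over PSBP2 reverses under quantile normalization.

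The other 6 subunits of photosystem II all fell in both genotypes, PSBR the least. In control libraries PSBR had 8537 and 8629 TPM in wild type and 8062 and 7781 TPM in prp43a, and after heat 5572 and 6009 TPM and 5583 and 5526 TPM. PSBR (AT1G79040), a subunit that helps to hold the oxygen-evolving proteins, was lower in every heat library and yet ranked 8th of all gene rows in wild-type control and 7th in wild-type heat. PSBR had log2 fold changes of -0.57 in wild type (SE 0.09, limma adjusted p = 2.9e-04) and -0.51 in prp43a (SE 0.09, limma adjusted p = 5.9e-04); under quantile normalization the values were 0.18 and 0.16 and did not pass. For PSBS the values were 1741 and 1787 TPM (wild type, control), 1829 and 1652 TPM (prp43a, control), 785 and 953 TPM (wild type, heat) and 782 and 822 TPM (prp43a, heat). PSBS (AT1G44575, listed in the file as NPQ4), the sensor of lumen acidity that switches on heat dissipation of excess light, was lower in each heat library without overlap, with log2 fold changes of -1.03 in wild type (SE 0.10, limma adjusted p = 1.0e-05) and -1.12 in prp43a (SE 0.10, limma adjusted p = 5.6e-06). The small membrane subunits PSBX (AT2G06520), PSBTN (AT3G21055) and PSBY (AT1G67740) had log2 fold changes in wild type of -2.62, -2.84 and -2.38, and PSBW (AT2G30570) -1.12. Among these 6 genes the falls in wild type thus spread from 1.48-fold to 7.16-fold.

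Among the carriers PETE2 was the gene of the 40 that moved least in the TPM as deposited. Plastocyanin, encoded by PETE1 and PETE2, carries electrons from the cytochrome b6f complex to photosystem I. PETE2 gave 4302 and 4567 TPM (wild type) and 4730.5 and 4482 TPM (prp43a) at control temperature and 3849 and 4089 TPM (wild type) and 3829 and 4042 TPM (prp43a) after heat. PETE1 gave 289.8 and 279 TPM (wild type) and 266 and 280.2 TPM (prp43a) at control temperature and 57.5 and 61.2 TPM (wild type) and 59.9 and 65.3 TPM (prp43a) after heat. The minor gene PETE1 was lower in every heat library by about 4-fold or more, while the ranges of the major gene PETE2 nearly met. PETE2 (AT1G20340, listed in the file as DRT112, chromosome 1, 7042046 to 7043392, minus strand) had log2 fold changes of -0.16 in wild type (SE 0.09, limma adjusted p = 0.13) and -0.23 in prp43a (SE 0.09, limma adjusted p = 0.043). The call of PETE2 in prp43a was lost in 10 of 18 alternatives, among them the fits without any 1 of the 2 wild-type control libraries (0.052 in both) and without any 1 of the 4 prp43a libraries (0.058 to 0.25). Its direction depended on scaling, with -0.45 in wild type and -0.54 in prp43a under median-of-ratios scaling and 0.72 and 0.60 under quantile normalization, all past the test. In the TPM as deposited PETE2 ranked 20th of all gene rows in wild-type control and 11th in wild-type heat. PETE1 (AT1G76100) had log2 fold changes of -2.24 in wild type (SE 0.08, limma adjusted p = 1.3e-08) and -2.11 in prp43a (SE 0.08, limma adjusted p = 2.1e-08). PETE1 made up 5.33 to 6.31% of the pair in control libraries and 1.47 to 1.59% in heat libraries, and the log2 ratio went from -4.01 ± 0.11 to -6.00 ± 0.05 (SD, n = 4 each; exact permutation test, p = 0.0286; 0.0321 adjusted over 9 pairs).

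PETC was measured at 2223 and 2133 TPM in untreated wild type and 2185 and 2146 TPM in untreated prp43a, against 1479 and 1532 TPM in heated wild type and 1448 and 1466 TPM in heated prp43a. PETC (AT4G03280), the Rieske iron-sulfur protein of the cytochrome b6f complex, was modestly lower in each heat library and ranked 52nd before and 43rd after heat in wild type. PETC had log2 fold changes of -0.53 in wild type (SE 0.08, limma adjusted p = 1.3e-04) and -0.57 in prp43a (SE 0.08, limma adjusted p = 8.3e-05), and under quantile normalization 0.18 and 0.10, which did not pass. The 2 subunits of the ATP synthase differed from each other. ATPC1 (AT4G04640), the gamma subunit, kept 32.4% of its wild-type level and ATPD (AT4G09650), the delta subunit, 9.79%, with log2 fold changes in wild type of -1.62 (SE 0.07, limma adjusted p = 4.0e-08) and -3.35 (SE 0.10, limma adjusted p = 3.9e-09).

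The shifts between paired genes could depend on how reads were shared between them. Within a pair the coding sequences were 70.5 to 88.0% identical, and the longest run of identical bases was 17 to 35, shorter than a read of 75 bases. Untranslated regions were not compared, and the sharing of reads between paired genes was not tested. In all, 8 of 9 pairs shifted past the exact permutation test without overlap between control and heat libraries. A p of 0.0286 is the smallest this test gives and so does not rank the pairs. The test exchanged the 8 libraries without regard to genotype, and no permutation within genotypes was run. The 10 genes with a single exon had a median log2 fold change with heat of -2.50 in wild type (-4.55 to -0.16) and -2.37 in prp43a. For the 30 genes with 2 or more exons the medians were -1.90 in wild type (-4.24 to -0.43) and -1.91 in prp43a. A part of exon number in the heat response was not tested.

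None of the 40 genes passed the test between prp43a and wild type, at control temperature, after heat or in the difference of the heat responses. Of all genes tested 0.0711% passed at control temperature, 0.00508% after heat and 0.0102% in the difference of the heat responses. At control temperature none of the 40 had an unadjusted p below 0.05 either, and voom on recovered reads also called none in any of the 3 comparisons. The log2 differences at control temperature ran from -0.19 to 0.18 with a median of -0.07, against 0.01 over all genes, and 32 of the 40 were negative, against 46.6% of all genes. Most root markers lay the other way at control temperature, with NRT2.1, COBL9 and TIP2;3 near the floor in all libraries. Both prp43a libraries were above both wild-type libraries for 6 of 9 and below them for 1, against 21.6% and 17.9% of all genes tested. The summed share of the 9 root markers, most of it PYK10, was 0.126% ± 0.012 against 0.113% ± 0.002 of all TPM (SD, n = 2 each). None of the 7 root markers tested passed (smallest limma adjusted p = 0.42). For all 5 leaf markers the libraries of the genotypes overlapped. The summed share of the leaf markers was 3.67% ± 0.177 in prp43a against 3.62% ± 0.018 in wild type (SD, n = 2 each). The part of either marker set in the differences of the 40 genes was not tested. Both prp43a control libraries lay below both wild-type control libraries for 21 genes and above them for 3, which held for 17.9% and 21.6% of all genes tested. Under quantile normalization the median was -0.01. In summed share the prp43a control libraries stood at 12.9% and 12.7% against 13.5% and 13.4% in wild type; 2 libraries against 2 cannot pass a permutation test. The smallest unadjusted p values at control temperature belonged to PSBQ2, LHCA2 and PSAN, with log2 differences of -0.19, -0.12 and -0.11 (limma adjusted p = 0.71, 0.73 and 0.74).

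After heat the log2 differences between prp43a and wild type ran from -0.27 to 0.26, with a median of -0.02 against 0.03 over all genes. Both prp43a heat libraries were below both wild-type heat libraries for 4 genes and above them for 3, against 11% and 19.4% of all genes tested. An unadjusted p below 0.05 was found for PSAH2, 0.26 higher in prp43a (SE 0.08, limma adjusted p = 1), and LHCA6, at -0.22 (SE 0.09, limma adjusted p = 1), a share of 2 in 40 where 4.56% of all genes had one. LHCB4.3 followed at -0.27 (SE 0.12, limma adjusted p = 1). The heat responses of the genotypes differed by at most 0.41 on the log2 scale, and by less than 0.1 for 25 of the 40 genes. Differences beyond 0.3 were seen for PSAD2 (0.41), LHCB4.3 (-0.39) and PSAH2 (0.31), with limma adjusted p of 0.77, 0.78 and 0.75; these were the 3 of 40 with an unadjusted p below 0.05, where 6.28% of all genes had one. Across the 40 genes the response in wild type and that in prp43a followed the same order (Spearman's rho = 0.99 across genes, which share libraries). Standard errors of the genotype differences were 0.07 to 0.19, so that small differences were not detectable with 2 libraries a group.

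**Figure D5:**
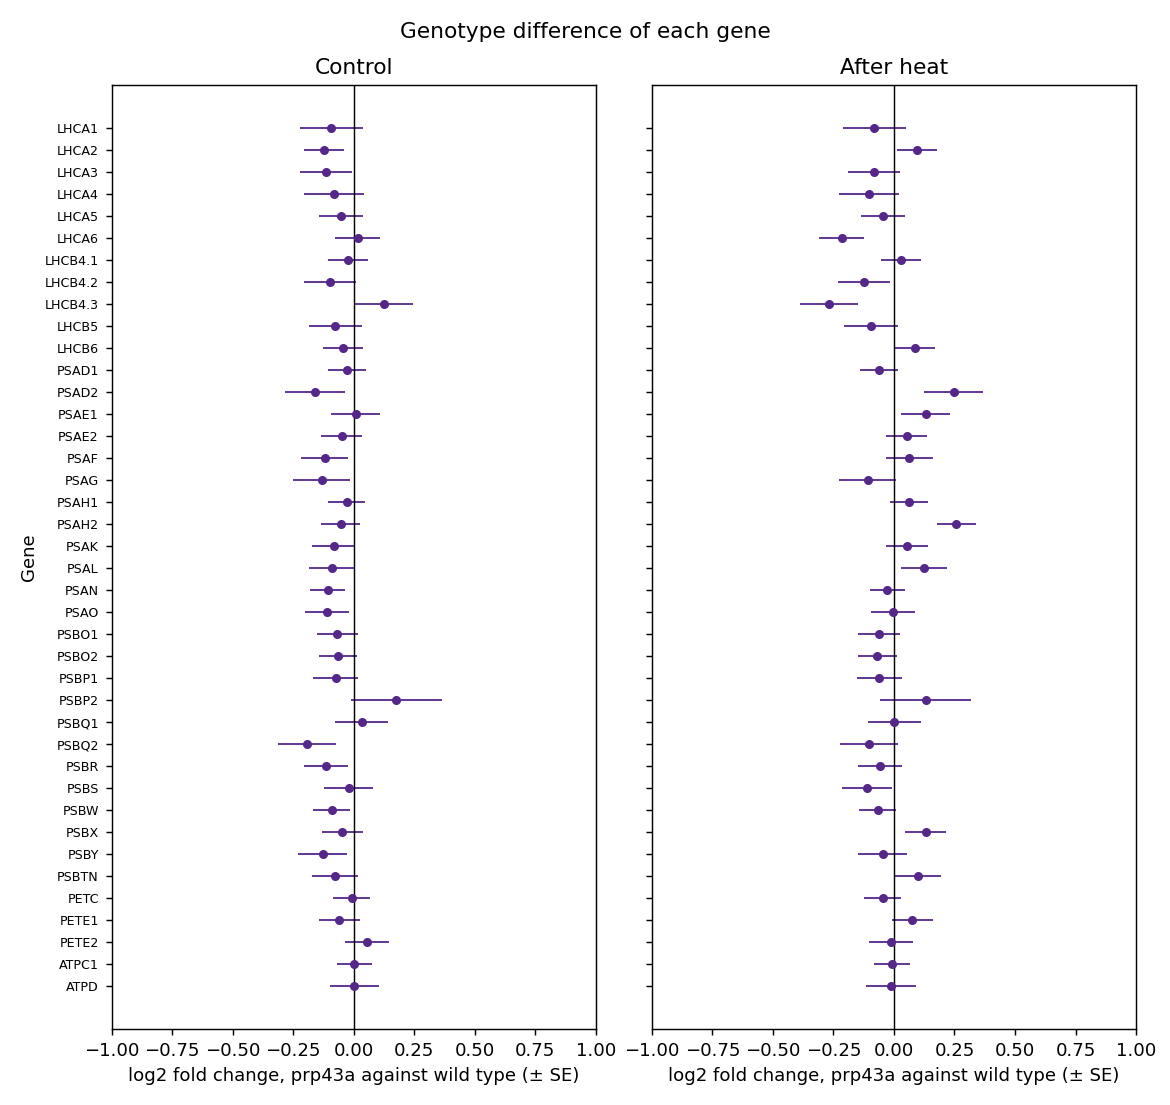
Log2 difference between prp43a and wild type of each gene with its standard error, at control temperature (left) and after heat (right). The points lie between -0.27 and 0.26; at control temperature 32 of 40 lie left of 0, and none of the 40 passes the limma test in either panel.

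The neighbours of these genes in the pathway behaved less uniformly with heat. Of 36 nuclear genes for assembly factors, regulators and further electron carriers, 22 fell and 5 rose in wild type and 22 fell and 7 rose in prp43a, with medians of -1.02 and -1.13 against -2.03 and -2.04 for the 40 genes. Of all genes tested 27.6% fell and 42.4% rose in wild type and 27% fell and 43.1% rose in prp43a. Median-of-ratios scaling gave 25 falls and 4 rises in wild type and 26 and 3 in prp43a, and quantile normalization 23 and 7 and 24 and 6. HCF173 and HCF244, which are needed to translate the D1 protein of photosystem II, had log2 fold changes in wild type of -3.12 and -2.68. The thylakoid-bending protein gene CURT1B had -2.86, the PsbP-like gene PPL2 -2.68, and the photosystem II maintenance genes LQY1 and PSB28 -2.30 and -2.17. PGRL1B, which takes part in cyclic electron flow around photosystem I, rose from 42.3 and 49.4 to 132 and 141 TPM in wild type (log2 fold change 1.56, SE 0.12, limma adjusted p = 1.2e-06), while its partner gene PGRL1A fell, with -1.44. HCF136, an early assembly factor of photosystem II, rose from 362 and 384 to 694 and 854 TPM, and the kinase gene STN8, the cytochrome b6f subunit gene PETM and CPSRP54, which guides antenna proteins to the membrane, rose by 0.67, 0.63 and 0.43. Under median-of-ratios scaling and under quantile normalization CPSRP54 stayed above 0 without passing (0.14 and 0.13), and the other 4 still rose in wild type. In prp43a the same 5 genes rose and in addition ATPC2, a second gene for the gamma subunit of the ATP synthase, by 0.91 and TAP38, a phosphatase of the major antenna, by 0.23. Of these 7, PGRL1B, HCF136 and ATPC2 still rose in prp43a under both scalings, STN8 and CPSRP54 passed under neither, PETM passed under quantile normalization only, and TAP38 was below 0 under both without passing (-0.08 and -0.02).

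The 9 genes of the major light-harvesting proteins of photosystem II all fell in both genotypes, in wild type each by at least 4-fold, with a lowest log2 fold change of -9.90 and a median of -3.92. Summed in wild type they held 6.41% ± 0.272 of all TPM in control and 0.723% ± 0.066 after heat (SD, n = 2 each). They kept 11.3% of their share where the 40 genes kept 28.8%. Some of these genes are close copies of each other, and how reads were divided among them is uncertain. Of 16 genes for Rubisco small subunits, Rubisco activase and the Calvin cycle 15 fell in wild type and 16 in prp43a, with a median of -1.05 in wild type, and kept 45.3% of their share. Under quantile normalization 11 and 13 of these 16 fell. In that group PGK1 was the gene that did not pass in wild type, at -0.15, and SBPASE had the largest fall, at -2.84. Transcripts encoded in the chloroplast were scarce in these poly(A)-selected libraries, and whether such libraries follow their levels was not tested. Over all genes tested, 27.6% fell and 42.4% rose in wild type, and 27% fell and 43.1% rose in prp43a. Of 12 tested photosystem, cytochrome and ATP synthase genes of the chloroplast, psaB fell and psbA, psbB and atpA rose in wild type (psbB no longer with median-of-ratios scaling). In prp43a psaB fell and psbA, psbC and atpA rose, psbC under neither other scaling, and atpB, at -0.12 and -0.19, fell in both genotypes under both of these scalings. In wild type atpA went from 3.91 and 6.13 to 27.8 and 33.9 TPM and psbA from 12.5 and 12.9 to 24.4 and 23.1 TPM.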

How the data were processed

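The authors deposited 1 table of TPM values for 27655 genes and 8 libraries, per the file headers. The submitters' processing notes name TAIR10 as the build; the sources used here do not state the aligner, the counter, the use of strand or the treatment of reads matching several genes. A kit for stranded mRNA and paired reads of 75 bases were used, per the labels' protocols.

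Groups were taken from the sample titles. Genes with at least 1 TPM in at least 2 of 8 libraries (19697) entered the fit of log2(TPM + 1) by limma 3.58.1, R 4.3.3 (moderated test, mean-variance trend, 1 mean for each group, residual degrees of freedom 4). P-values were adjusted over all genes tested (Benjamini-Hochberg) and called below 0.05. Log2 fold changes on this scale understate changes of genes with low values. Counts of genes past a fold use this scale; a percent of a level kept and a fold of a single gene are ratios of mean TPM. The 40 genes were read from this fit. TPM keeps no depth, but low values lay on steps: with exon lengths from the TAIR10.1 annotation 99.2% of 126797 values of up to 200 reads came out whole within 0.05. A gene of 1500 exon bases at 10 TPM rested on 37.0 to 44.7 reads. Voom on these recovered reads was an alternative.

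Paired genes were compared by the exact permutation test of their log2 ratio, 4 control against 4 heat libraries, adjusted over 9 pairs. Promoters are 250 bases before the annotated gene start. Coding sequences were aligned with Biopython 1.88.

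The 40 genes, the other lists and the tests were chosen with earlier results of these data known. Values of each library are given by a rule: both genes of each pair, the 6 lowest and 6 highest responses to heat in wild type, genes not called, the 3 smallest p-values between genotypes and the most abundant gene of each role group. Of other lists, up to 6 called genes with the largest response and those called against the majority are named, and in addition, chosen after their values were seen, PGRL1A, RBCS1A, PGK1 and the root markers.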

Additional observations from a re-analysis of the deposited data

How the results depend on the processing

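The settings tried were pseudocounts of 0.1 and 5, no filter and a filter at 5 TPM, quantile normalization, median-of-ratios scaling, no mean-variance trend, voom on recovered reads, only the 4 libraries compared, the replicate number as a block, and each library left out. None of the 40 genes passed between genotypes under any of them, nor in the difference of heat responses, for which no fit of 4 libraries exists. With heat, 36 of the 40 passed lower in wild type and 35 in prp43a as deposited and under every alternative. The others were PSBP2, PSAE2 (in prp43a) and PETE2, PSBR and PETC, of which the last 3 reversed under quantile normalization, at 0.72, 0.18 and 0.18 in wild type and 0.60, 0.16 and 0.10 in prp43a. The ratio of PSBP1 to PSBP2 also reversed there (0.31). The median of the 40 genes with heat was -2.31 in wild type under median-of-ratios scaling, and in prp43a -1.92 with a pseudocount of 5, -2.36 with median-of-ratios scaling, -1.94 with quantile normalization and -2.09 with voom; with a library left out it ran from -2.04 to -1.997 in wild type and from -2.07 to -1.91 in prp43a. Between genotypes the median was -0.013 at control temperature under quantile normalization and -0.063 after heat under median-of-ratios scaling, and with a library left out it ran from -0.075 to -0.063 at control temperature, from -0.055 to 0.029 after heat, and for the difference of heat responses from -0.014 to 0.11. With median-of-ratios scaling the summed shares were 14.9% and 14.0% in control and 3.51% and 3.34% after heat (wild type and prp43a), against ranges with a library left out of 13.43 to 13.46%, 12.7 to 12.9%, 3.71 to 4.04% and 3.69 to 3.90%. The same scaling made 49.6% of all calls with heat in wild type higher ones, against 60.5% as deposited, and 49.2% against 61.5% in prp43a. Over all genes, calls between genotypes at control temperature were 14, 0 with only the 4 libraries compared and 4 to 40 with a library left out; after heat 1, 2 with no filter, 6 with no trend, 0 with only the 4 libraries and 1 to 3 with a library left out; and for the difference of heat responses 2, 0 with a pseudocount of 0.1, no filter or no trend, 7 with a pseudocount of 5, 4 with the filter at 5 TPM and 0 to 1 with a library left out. The shift of LHCB4.1 against LHCB4.3 ran from 0.59 to 0.79 with a library left out. The causes were not tested. Libraries of the same replicate number showed no shared deviation from their group means, with correlations over genes of -0.028 to 0.028 between groups. These values cannot show whether such libraries were grown or harvested together. With the replicate block 38 of the 40 fell with heat in wild type and 39 in prp43a, where PETE2 was lost (limma adjusted p = 0.052). None of the 40 passed between genotypes with this block, and 4 genes of all passed in the difference of heat responses. With 2 libraries a group the tests borrow their spread from all genes. Genotype differences well above their standard error could also go undetected: PSAH2 after heat, at 0.26 (SE 0.08), did not pass.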
